A study of Mus musculus with 6 samples.

Results

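The 10 genes described here encode the coat proteins, lipases, lipase regulators and acyltransferases that store triglyceride in lipid droplets and release it. They were taken by symbol, Plin2, Plin4, Plin5, Pnpla2, Lipe, Mgll, Abhd5, G0s2, Dgat1 and Dgat2, and all 10 were found among the 54352 rows of a table of mouse heart RNA sequencing values. Each of the 10 had a mean value above the minimum set for testing, so all 10 were tested among 13094 genes. The 6 libraries fall into 3 groups of 2. The T2D dnMCUb group held C57BL/6 mice with type 2 diabetes (T2D) that received an adeno-associated virus (AAV) encoding murine MCUb with a C-terminal FLAG tag and a pair of point mutations that make it dominant negative; MCUb is a paralogue of the pore subunit of the mitochondrial calcium uniporter. The series' design line speaks of mice that overexpress MCUb and does not call it dominant negative. The sample labels and the treatment protocol say dnMCUb and are followed here. The T2D empty vector group held mice made diabetic in the same way that received an empty AAV. Mice of both diabetic groups were 12 weeks old when they were put on high fat chow (60% of its calories as fat) and given 1 dose of streptozotocin (75 mg/kg), a toxin of pancreatic beta cells, and diabetes was defined after 20 weeks of the diet. Virus went into the jugular vein 16 to 18 weeks past the streptozotocin dose, and hearts were studied 4 weeks later, 5 to 6 months from induction. Control mice ate regular chow and carried no transgene, and the labels list no vector and no age for them. Diet, streptozotocin and vector therefore cannot be told apart when a diabetic group is set against control. No promoter or target cell of the virus is given in the sources used here. Nothing in the labels ties a library to its own animal. The spread behind every p-value is that between libraries, and it may be technical.

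A lipid droplet is a core of triglyceride under a monolayer of phospholipid, coated by proteins of the perilipin family. Triglyceride is made in its last step by the diacylglycerol acyltransferases and broken down in 3 steps, by adipose triglyceride lipase, hormone-sensitive lipase and monoglyceride lipase in turn. In heart muscle this store is small and turns over quickly, and the fatty acids it releases serve as fuel and as ligands of the nuclear receptor PPAR alpha, which has several lipid droplet genes among its targets.

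Levels are regularized log (rlog) values on the log2 scale, deposited by the authors, which compress differences. Among genes the authors called between T2D empty vector and control, the rlog difference was a median 0.577 of the authors' log2 fold. Depth is unknown for every library, because the values are not counts. An rlog value does not correct for gene length, so levels are compared between libraries and not between genes, except within the marker sums below. The share of a gene in such a sum is not corrected for length. In whole heart RNA, fewer cells of a type and less RNA per cell cannot be told apart. Library 1 of T2D dnMCUb stood apart, at 10.8 on a first principal component that held 46.7% of the variance, while the other libraries lay between -4.42 and 2.69. Its atrial myocyte markers Myl7, Myl4, Sln and Dkk3 were the highest of the 6 libraries. Myl7 was at 10.22 against 7.40 in library 2 of that group (control library 1 was also high, at 9.45, against 7.32 in control library 2). Nppa, another atrial marker, was instead highest in control library 2 (11.01, against 10.89 in library 1 of T2D dnMCUb). Bmp10, too low to be tested, was highest in library 2 of T2D empty vector (2.49, against 2.46). Myh6, a myosin gene not confined to the ventricle, was at 18.68 in library 1 of T2D dnMCUb against 19.04 in library 2. Myl2, also from the ventricular myocyte list, was at 16.96 against 17.23. Mcub was at 5.62 and 5.47 in T2D dnMCUb, 5.48 and 5.46 in T2D empty vector, with control at 5.42 and 5.47. Its difference between T2D dnMCUb and T2D empty vector did not pass in limma (0.078, adjusted p = 0.888), so its level does not check the dnMCUb label, and each direction given for these libraries rests on that label. It is not stated in these sources if vector reads were counted under Mcub.

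G0s2, the inhibitor of adipose triglyceride lipase, had the largest difference of the 10 genes. The gene (ENSMUSG00000009633.3) lies on the minus strand of chromosome 1 from 193272161 to 193273217 (GRCm38). Its rlog was 9.72 and 9.82 in libraries 1 and 2 of T2D dnMCUb, while T2D empty vector had 9.50 and 9.45 and control 9.85 and 9.75. Both T2D empty vector libraries lay below every other library, while T2D dnMCUb and control overlapped. The difference of T2D empty vector from control was -0.32 (SE 0.055), which did not pass in limma over all genes when 6 libraries shared the spread (adjusted p = 0.435), although it ranked 11 of 13094 by p. In the authors' deposited table G0s2 fell in T2D empty vector, by a log2 fold of -0.60 or 0.660-fold of control, with an adjusted p of 0.00201. With only the T2D empty vector and control libraries in the limma fit the adjusted p was 0.0444. Leaving out library 1 or 2 of T2D dnMCUb nearly repeats that fit, because the lone library left adds no spread. The difference was again -0.32, so these fits are not separate evidence. Without 1 of the T2D empty vector or control libraries the difference stayed between -0.37 and -0.27 and did not pass (limma adjusted p between 0.887 and 0.999). In T2D dnMCUb the level exceeded that of T2D empty vector, with a difference of 0.29 (SE 0.055; limma adjusted p = 0.780, rank 9), with a log2 fold of 0.54 or 1.45-fold and an adjusted p of 0.654 in the authors' deposited table, so the higher level did not pass in either source. Without library 1 of T2D dnMCUb that difference was 0.34 (adjusted p = 0.135), and without library 2 it was 0.24 (adjusted p = 0.130). T2D dnMCUb differed from control by -0.035 (SE 0.055; limma adjusted p = 0.823), less than the standard error. These comparisons share libraries: the T2D empty vector libraries enter both the lower and the higher difference.

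G0s2 overlaps Lamb3, a laminin gene on the opposite strand, and the sources used here do not give the strand setting of the counting. Lamb3 stood at 7.65 and 7.69 in T2D dnMCUb, 7.66 and 7.63 in T2D empty vector, with control at 7.80 and 7.54. Its difference between T2D empty vector and control was -0.027 (SE 0.075; limma adjusted p = 0.954), so it did not follow the pattern of G0s2 across the groups.

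**Figure D1:**
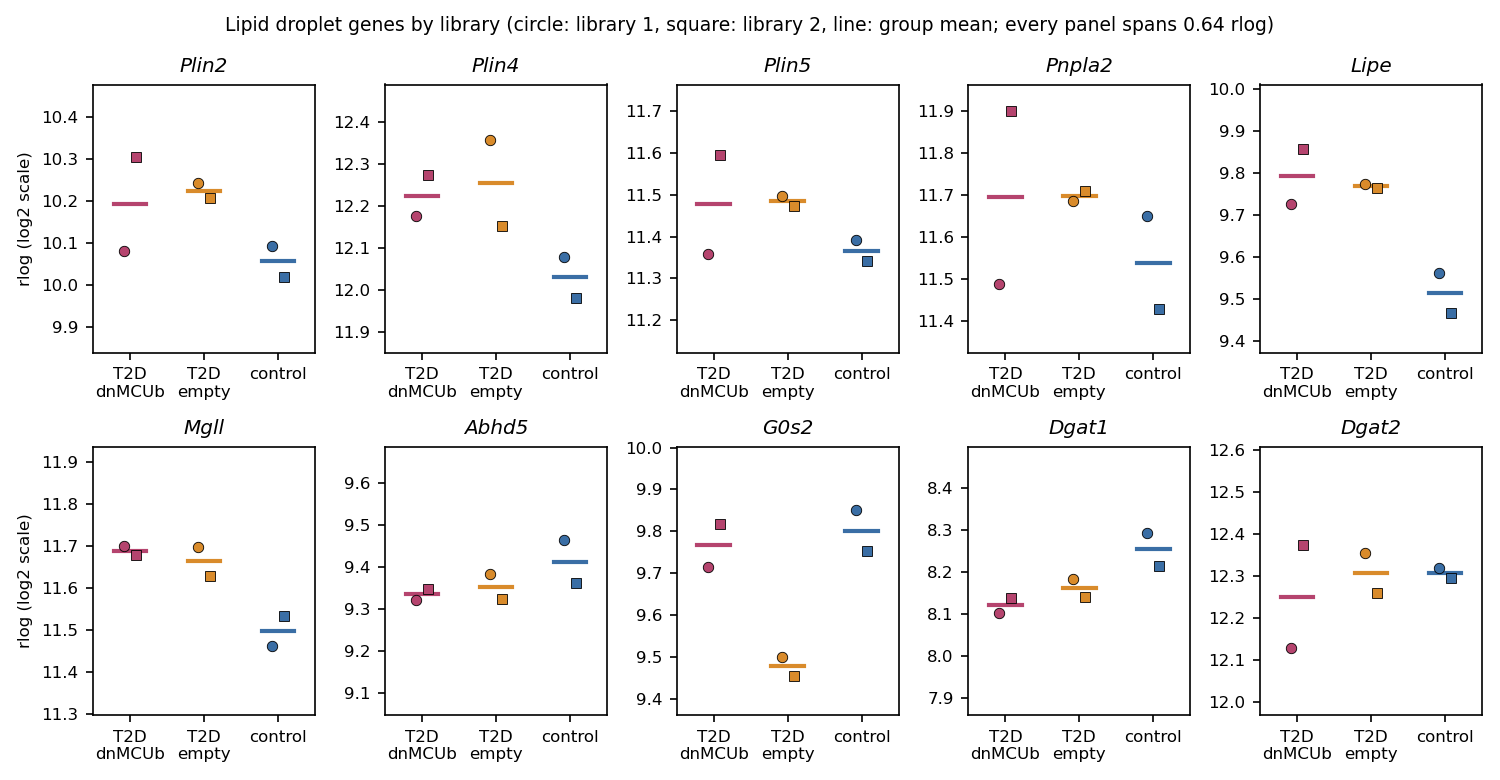
Rlog values (log2 scale) of the 10 genes in each library, by group, with circles for library 1, squares for library 2 and a line at the group mean; every panel spans the same height. G0s2 is low in both T2D empty vector libraries (9.50 and 9.45), Lipe and Mgll are higher in all 4 diabetic libraries than in control, and the T2D dnMCUb libraries are far apart for Pnpla2 (11.49 and 11.90).

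Adipose triglyceride lipase, which G0s2 inhibits, is encoded by Pnpla2 (ENSMUSG00000025509.15, plus strand of chromosome 7 from 141455206 to 141460092). It starts the breakdown of triglyceride. Pnpla2 was at 11.49 and 11.90 in libraries 1 and 2 of T2D dnMCUb, 11.69 and 11.71 in T2D empty vector, with control at 11.65 and 11.43. The T2D empty vector libraries nearly coincided and lay above control, and the T2D dnMCUb libraries lay on both sides of the T2D empty vector pair. The difference of T2D empty vector from control was 0.16 (SE 0.13; limma adjusted p = 0.870), and that of T2D dnMCUb from T2D empty vector was -0.0030 (SE 0.13). The size of both differences from control moved with the library left out. For T2D empty vector it was 0.049 without control library 2 and 0.27 without control library 1. For T2D dnMCUb the difference from control was 0.36 without library 1 (adjusted p = 0.129) and -0.050 without library 2 (adjusted p = 0.768).

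Hormone-sensitive lipase, the product of Lipe, acts mainly on diacylglycerol. Lipe (ENSMUSG00000003123.15, minus strand of chromosome 7 from 25379527 to 25396379) was at 9.73 and 9.86 in T2D dnMCUb, 9.77 and 9.76 in T2D empty vector, with control at 9.56 and 9.47. All 4 diabetic libraries lay above both control libraries. T2D empty vector was above control by 0.25 (SE 0.058; limma adjusted p = 0.581) and T2D dnMCUb by 0.28 (SE 0.058; adjusted p = 0.151), and neither passed. In the authors' deposited table the log2 folds were 0.47 (adjusted p = 0.0596) and 0.51 (adjusted p = 0.154), that is 1.38-fold and 1.42-fold. Over the 4 diabetic libraries together the difference was 0.27 (SE 0.050; limma adjusted p = 0.154). It was 0.30 without library 1 of T2D dnMCUb and 0.23 without library 2, and between 0.22 and 0.31 with each library left out in turn. T2D dnMCUb over control was 0.34 without library 1 and 0.21 without library 2. Whether the differences of T2D dnMCUb and of the 4 diabetic libraries together passed in limma changed with the library left out. That of T2D empty vector lay between 0.21 and 0.30 and did not pass in any of these fits. The fits that leave out 1 library of a group assume that the lone library varies like the other groups.

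Monoglyceride lipase, encoded by Mgll, completes the breakdown and also degrades a major endocannabinoid. Mgll (ENSMUSG00000033174.17, plus strand of chromosome 6 from 88724828 to 88828360) was at 11.70 and 11.68 in T2D dnMCUb, 11.70 and 11.63 in T2D empty vector, with control at 11.46 and 11.53. The 4 diabetic libraries again lay above both controls, and the diabetic groups overlapped each other. The differences from control were 0.19 (SE 0.054; limma adjusted p = 0.264) for T2D dnMCUb and 0.17 (SE 0.054; limma adjusted p = 0.762) for T2D empty vector, and neither passed. Between T2D dnMCUb and T2D empty vector Mgll differed by 0.026 (SE 0.054) and Lipe by 0.024 (SE 0.058), both less than the standard error. Mgll overlaps 5 genes annotated as antisense or unverified, of which Gm44005 and Gm43999 were tested and differed by 0.014 and -0.0078 between T2D empty vector and control (limma adjusted p = 0.948 and 0.961).

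Abhd5 encodes the co-activator of adipose triglyceride lipase, which perilipins can hold back from the enzyme. Abhd5 (ENSMUSG00000032540.16, plus strand of chromosome 9 from 122351730 to 122379825) was at 9.32 and 9.35 in T2D dnMCUb, 9.38 and 9.32 in T2D empty vector, with control at 9.46 and 9.36. Its range over the 6 libraries was 0.143, the smallest of the 10 genes. Both T2D dnMCUb libraries lay below both controls, by a difference of -0.078 (SE 0.050; limma adjusted p = 0.564), and T2D empty vector overlapped control with a difference of -0.059 (SE 0.050; limma adjusted p = 0.870). The difference of T2D dnMCUb was -0.028 without control library 1 and -0.13 without control library 2.

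Within each library, the rlog of G0s2 minus that of Pnpla2 was -1.77 and -2.08 in T2D dnMCUb, against -2.18 and -2.26 in T2D empty vector, with control at -1.80 and -1.68. Both T2D empty vector libraries lay below all others, and the T2D dnMCUb libraries lay on both sides of control library 1. For the co-activator Abhd5 the same difference was -2.17 and -2.55 in T2D dnMCUb, against -2.30 and -2.39 in T2D empty vector, with control at -2.19 and -2.07. These differences within a library were chosen after the values were seen and carry no test, and since rlog ignores length, only their change between libraries can be read.

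**Figure D2:**
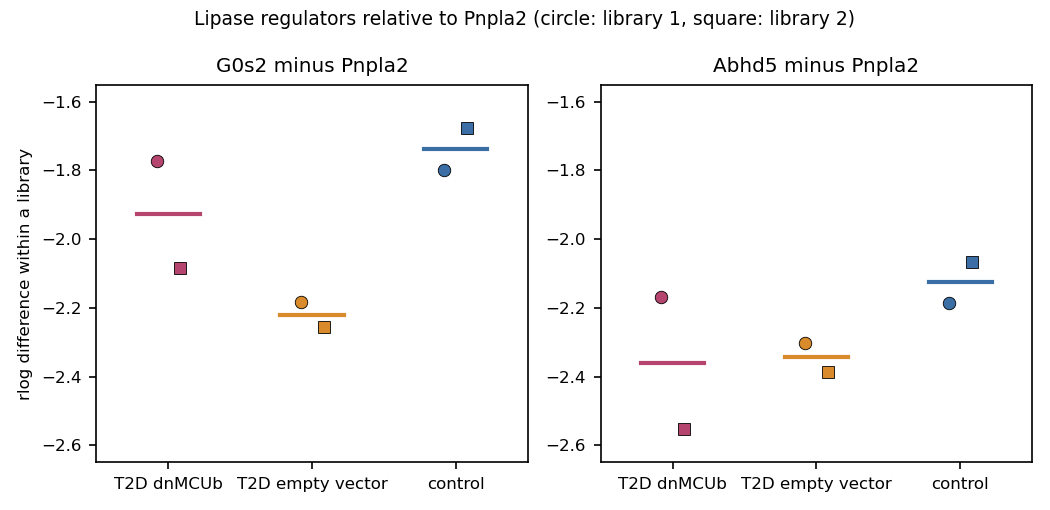
Rlog of G0s2 and of Abhd5 minus rlog of Pnpla2 within each library, by group, with circles for library 1, squares for library 2 and a line at the group mean. G0s2 minus Pnpla2 is -1.77 and -2.08 in T2D dnMCUb, while T2D empty vector is lowest at -2.18 and -2.26 and control lies at -1.80 and -1.68.

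The 3 coat protein genes among the 10 were all higher in T2D empty vector than in control, with no overlap between these groups. None of the 3 passed in limma or in the authors' deposited table. Plin3, a perilipin gene of the wider list described below, went the other way. It was at 11.18 and 11.27 in T2D dnMCUb, 11.38 and 11.25 in T2D empty vector, with control at 11.49 and 11.45. Its difference from control was -0.16 (SE 0.061, limma adjusted p = 0.805) for T2D empty vector. For T2D dnMCUb it was -0.25 (SE 0.061, limma adjusted p = 0.209), and neither passed. Perilipin 2, encoded by Plin2 (ENSMUSG00000028494.12, minus strand of chromosome 4 from 86656565 to 86670060), coats droplets in most cell types. Its rlog was 10.08 and 10.30 in T2D dnMCUb, 10.24 and 10.21 in T2D empty vector, with control at 10.09 and 10.02. The difference of T2D empty vector from control was 0.17 (SE 0.074; limma adjusted p = 0.805). Library 1 of T2D dnMCUb lay between the controls and library 2 was the highest of all 6. The difference of T2D dnMCUb from control was 0.25 without library 1 and 0.026 without library 2.

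Perilipin 4, encoded by Plin4, is found in fat, heart and skeletal muscle. Plin4 (ENSMUSG00000002831.13, minus strand of chromosome 17 from 56100591 to 56109802) was at 12.18 and 12.27 in T2D dnMCUb, 12.36 and 12.15 in T2D empty vector, with control at 12.08 and 11.98. All 4 diabetic libraries were above both controls. The difference was 0.23 (SE 0.081; limma adjusted p = 0.804) for T2D empty vector and 0.20 (SE 0.081; limma adjusted p = 0.420) for T2D dnMCUb, and it did not pass in either. Without library 1 of T2D empty vector that group's difference was 0.12, and without its library 2 it was 0.33. The 2 T2D empty vector libraries were 0.206 apart, nearly the size of that group's difference from control. Plin4 overlaps Hdgfl2 on the other strand, which differed by -0.052 (SE 0.040; limma adjusted p = 0.866) between T2D empty vector and control.

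Perilipin 5, encoded by Plin5, marks oxidative tissues such as heart, binds adipose triglyceride lipase and Abhd5 protein, and tethers droplets to mitochondria. Plin5 (ENSMUSG00000011305.11, minus strand of chromosome 17 from 56111601 to 56117596) lies beside Plin4 on the same strand, with 1798 bases between them. Its rlog was 11.36 and 11.60 in T2D dnMCUb, 11.50 and 11.47 in T2D empty vector, with control at 11.39 and 11.34. The difference of T2D empty vector from control was 0.12 (SE 0.078; limma adjusted p = 0.849). As for Plin2 and Pnpla2, library 1 of T2D dnMCUb was at control level and library 2 the highest of the 6. Without library 1 the difference of T2D dnMCUb from control was 0.23 (limma adjusted p = 0.134), and without library 2 it was -0.0076 (adjusted p = 0.952). The high Myl7, Myl4, Sln and Dkk3 and the low Myh6 and Myl2 of library 1 stand beside these gaps, and their part in them was not tested.

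Sequence before the transcription starts is shown for G0s2, Plin2 and the neighbours Plin4 and Plin5. G0s2 is the one gene of the 10 that passed in the authors' table. Each sequence is the longest stretch of a window of 250 bases with no base that GENCODE release M21 places in an exon. The sequences are from RefSeq (GRCm38.p6), read 5′ to 3′ on each gene's minus strand, and capitals mark AGGTCA or its reverse complement TGACCT, a half-site of PPAR and other nuclear receptors.
G0s2 (chr1:193273218-193273337): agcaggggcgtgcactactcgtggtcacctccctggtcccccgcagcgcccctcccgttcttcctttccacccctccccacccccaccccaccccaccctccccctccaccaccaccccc
Plin2 (chr4:86670061-86670309): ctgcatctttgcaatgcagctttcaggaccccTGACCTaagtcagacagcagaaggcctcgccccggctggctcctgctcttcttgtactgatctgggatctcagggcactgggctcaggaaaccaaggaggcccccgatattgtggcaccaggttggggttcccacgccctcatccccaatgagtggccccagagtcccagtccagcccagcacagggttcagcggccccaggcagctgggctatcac
Plin4 (chr17:56109804-56110032): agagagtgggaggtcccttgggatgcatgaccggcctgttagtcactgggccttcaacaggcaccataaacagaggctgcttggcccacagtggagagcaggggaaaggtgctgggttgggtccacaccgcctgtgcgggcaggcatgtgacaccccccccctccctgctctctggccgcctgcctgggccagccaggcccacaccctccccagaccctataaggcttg
Plin5 (chr17:56117597-56117798): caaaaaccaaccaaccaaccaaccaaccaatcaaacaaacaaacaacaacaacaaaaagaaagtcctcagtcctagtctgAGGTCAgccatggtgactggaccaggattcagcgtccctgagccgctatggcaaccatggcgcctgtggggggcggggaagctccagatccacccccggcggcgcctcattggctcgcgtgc
Of the 10 genes 8 had windows of 250 bases before a RefSeq start, 11 windows in all, and Dgat1 and Dgat2 had none. AGGTCA was found on either strand in 3 of the 11 windows, against 14.0% of all 32851 windows. It lay 170 bases before the RefSeq start in Plin5, 218 in Plin2 and 69 in Abhd5. Another Plin5 window (chr17:56117299-56117548) held no AGGTCA. DR1, the tandem repeat of this half-site with 1 base between the copies, was searched on both strands, always overlaps the half-site, and was in 0 of the 11 and in 0.0335% of all windows. A match describes these letters only, and the windows of G0s2 and Plin4 hold neither motif.

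Dgat1 and Dgat2 encode unrelated enzymes that both join a fatty acid to diacylglycerol, the last step of triglyceride synthesis. Dgat1 (ENSMUSG00000022555.12, minus strand of chromosome 15 from 76502015 to 76511951) was at 8.10 and 8.14 in T2D dnMCUb, 8.18 and 8.14 in T2D empty vector, with control at 8.29 and 8.22. The 4 diabetic libraries lay below both controls. The differences from control were -0.13 (SE 0.044; limma adjusted p = 0.319) for T2D dnMCUb and -0.092 (SE 0.044; limma adjusted p = 0.805) for T2D empty vector, neither passing. That of T2D empty vector was -0.053 without control library 1 and -0.13 without control library 2. Dgat2 (ENSMUSG00000030747.5, minus strand of chromosome 7 from 99153658 to 99182719) was at 12.13 and 12.37 in T2D dnMCUb, 12.36 and 12.26 in T2D empty vector, with control at 12.32 and 12.29. Its groups overlapped in every comparison, with a difference of -0.0006 (SE 0.085) between T2D empty vector and control, and its lowest value was in library 1 of T2D dnMCUb.

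In the comparison of T2D empty vector with control, limma called 0 of the 10 genes at an adjusted p under 0.05, and 0 (0%) of all 13094. At an unadjusted p under 0.05 it had 4 of the 10, against 6.13% of all genes. Plin4, Lipe and Mgll were the 3 higher, where 3.26% of all genes were, and G0s2 the 1 lower, where 2.87% were. The authors' deposited table called 1 of the 10, G0s2, against 0.542% of the same genes. At an unadjusted p under 0.05 the authors' deposited table had 7 of the 10, against 4.33% of all genes. Of these 6 were higher (Plin2, Plin4, Plin5, Pnpla2, Lipe and Mgll, where 2.25% of all genes were) and G0s2 was lower (2.08% of all genes were). The groups did not overlap in 8 of the 10, against 42.4% of all genes. Of these the 6 coat and lipase genes were higher, where 19.9% of all genes were, and G0s2 and Dgat1 were lower, where 22.5% were. The median rlog difference of the 10 was 0.14, and that of all genes was -0.0025. The median absolute difference was 0.16 over the 10 and 0.036 over all genes. The lowest group mean of the 10 was 8.12 (Dgat1 in T2D dnMCUb), while the minimum for testing was a mean rlog of 5. The 10 were not matched to genes of like level. The members were chosen with earlier results of these data known, so these counts describe them and are no test of the group.

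Between T2D dnMCUb and T2D empty vector limma called 0 of the 10, with 0% of all genes called, and 1 of the 10, G0s2, had an unadjusted p under 0.05 and was higher, against 5.64% of all genes, 3.12% higher and 2.53% lower. The authors' deposited table called 0 of the 10 and 0.0611% of all genes, and it too had G0s2 alone of the 10 at an unadjusted p under 0.05 (0.000913), against 1.82% of all genes, 1.28% higher and 0.535% lower. The groups did not overlap in 2 of the 10, G0s2 higher and Dgat1 lower, against 32.2% of all genes, 15.6% higher and 16.5% lower. The median difference over the 10 was -0.013, and over all genes it was -0.00051. A p that misses the threshold does not show that the other 9 genes were the same. Their standard errors ran between 0.044 for Dgat1 and 0.13 for Pnpla2.

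Between T2D dnMCUb and control limma called 0 of the 10 and 0.0687% of all genes, and the authors' deposited table called 0 of the 10 and 0.794% of all genes. At an unadjusted p under 0.05 limma had 4 of the 10, with Plin4, Lipe and Mgll higher and Dgat1 lower, against 11.4% of all genes, 5.89% higher and 5.54% lower. The authors' deposited table had Plin4, Lipe and Mgll at an unadjusted p under 0.05, all higher, against 5.67% of all genes, 3.33% higher and 2.34% lower. The groups did not overlap in 5 of the 10, with Plin4, Lipe and Mgll higher and Abhd5 and Dgat1 lower, against 42.9% of all genes, 20.2% higher and 22.7% lower. The median of the 10 was 0.12, and that of all genes was -0.0023. This comparison shares its control libraries with that of T2D empty vector and control, so the similar values of Lipe, Mgll and Plin4 in both are not separate evidence. With the 4 diabetic libraries together against control, limma called 0 of the 10 and 0% of all genes (smallest adjusted p over all genes 0.0745). At an unadjusted p under 0.05 it had 6 of the 10, Plin2, Plin4, Lipe and Mgll higher and G0s2 and Dgat1 lower, against 9.69% of all genes, 4.8% higher and 4.89% lower. The diabetic and control libraries did not overlap in 4 of the 10, with Plin4, Lipe and Mgll higher and Dgat1 lower, against 21.9% of all genes, 10% higher and 11.9% lower.

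**Figure D3:**
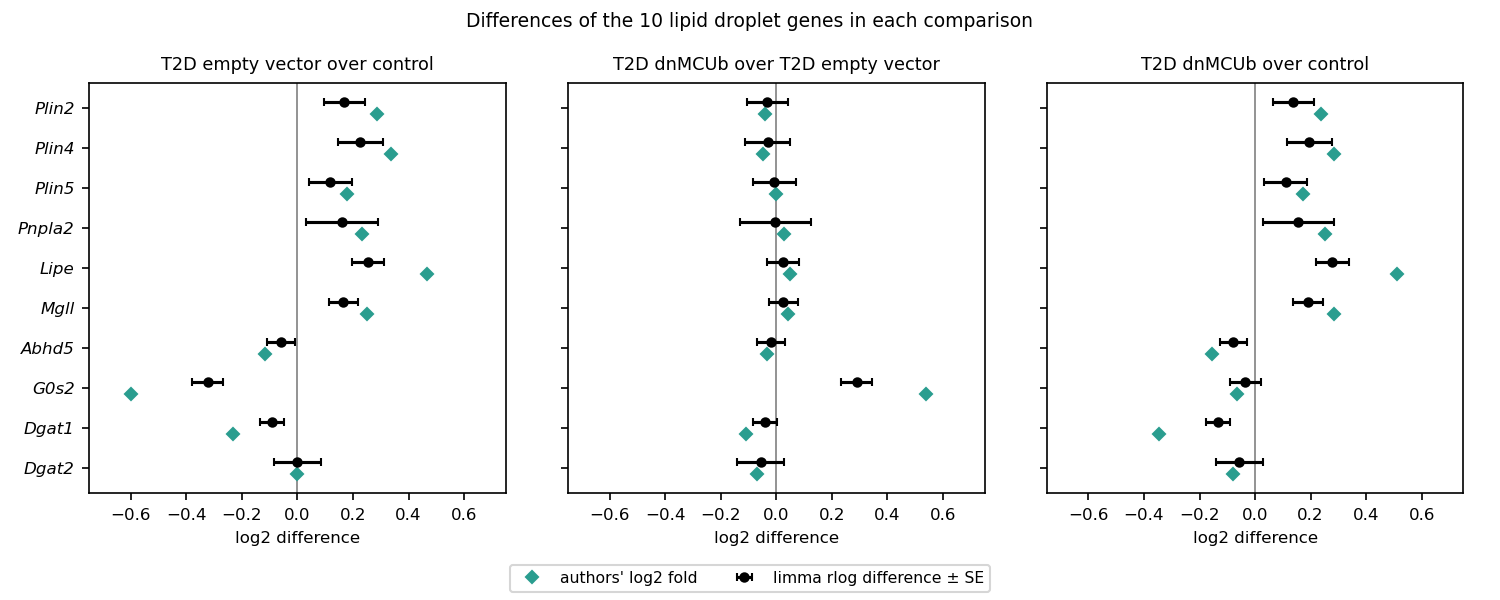
Differences on the log2 scale for the 10 genes in 3 comparisons, as limma rlog differences with standard errors (black) and as the authors' log2 folds (green diamonds, no error drawn). The coat and lipase genes lie right of 0 and G0s2 left of 0 (-0.32 and -0.60) for T2D empty vector over control, and only G0s2 lies more than its standard error from 0 (0.29 and 0.54) for T2D dnMCUb over T2D empty vector.

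Fat cells express most of these genes strongly, so fat cell markers were measured beside them. Of 12 fat cell markers 3 were tested, Fabp4, Cidea and Thrsp, and vessels of the heart express Fabp4 as well. The defining markers Adipoq (mean rlog 4.06), Plin1 (3.62), Cidec (3.46) and Lep (2.33) were below the minimum for testing. Adipoq was at 4.15 and 4.00 in T2D dnMCUb, 3.97 and 4.03 in T2D empty vector, with control at 4.19 and 3.99, so its groups overlapped. The summed level of the 12 markers (2 to the power of rlog) was 10333 and 11193 in libraries 1 and 2 of T2D dnMCUb, 10810 and 9922 in T2D empty vector, with control at 9003 and 9732. All 4 diabetic libraries were above both controls, as for Lipe, Mgll and Plin4. Most of this sum was Fabp4, at 13.22 and 13.33, 13.28 and 13.15, and 13.00 and 13.12 in the same libraries. No marker was listed at 0, and limma called 0 of the 3 tested in each comparison.

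All 8 ventricular myocyte markers were tested, with 0 called, and their summed level was 1040850 and 1262520 in libraries 1 and 2 of T2D dnMCUb, 1194390 and 1191310 in T2D empty vector, with control at 1347280 and 1266570. All 4 diabetic libraries were below both controls, and library 1 of T2D dnMCUb was the lowest, as it also was for Dgat1, Dgat2 and Abhd5. Several markers of this list, Myh6 among them, are not confined to the ventricle, so the sum does not separate the chambers. Atrial markers summed to 5701 and 1709 in T2D dnMCUb, 1705 and 2009 in T2D empty vector, with control at 3438 and 2698. In control library 2 this sum was mostly Nppa (11.01). There Myl7 (7.32), Myl4 (7.53), Sln (6.07) and Dkk3 (7.77) were the lowest of the 6 libraries. Macrophage markers ran between 8715 and 9907 in T2D dnMCUb, 8217 and 8712 in T2D empty vector, with control at 8137 and 8272. Red cell markers ran between 5667 and 8189 in T2D dnMCUb, 3323 and 3397 in T2D empty vector, with control at 3368 and 6387. Both T2D empty vector libraries lay below both T2D dnMCUb libraries and overlapped control. Of these atrial, macrophage and red cell markers 0 were called in each comparison. The part of any of these cells in the values of the 10 genes was not tested.

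Other genes of triglyceride storage differed from control in both directions. Of a wider list of 43 genes all were in the table and 34 were tested. In limma 0 of the 34 passed in any comparison. Between T2D empty vector and control 22 were higher and 12 lower, with a median of 0.050, where 48.2% of all genes were higher with a median of -0.0025. The authors' deposited table called 2 of the 34, against 0.542% of all genes. Gpam, the mitochondrial acyltransferase that starts glycerolipid synthesis, rose in T2D empty vector with a log2 fold of 0.62 and an adjusted p of 3.95e-08 in the authors' deposited table. Its rlog was 12.47 and 12.69 in T2D dnMCUb, 12.81 and 12.67 in T2D empty vector, with control at 12.34 and 12.30. All 4 diabetic libraries were above both controls. The limma difference of T2D empty vector from control was 0.42 (SE 0.087, adjusted p = 0.494; 0.0397 with only these groups in the fit). Lpin1, a phosphatidate phosphatase that makes the diacylglycerol used by the DGAT enzymes, fell in T2D empty vector with a log2 fold of -0.33 and an adjusted p of 0.0184 in the authors' deposited table. Lpin1 was at 11.78 and 11.78 in T2D dnMCUb, 11.91 and 11.92 in T2D empty vector, with control at 12.11 and 12.17, so the 3 groups were separate and the replicates close.

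For T2D dnMCUb over control, 20 of the 34 were higher and 14 lower, with a median of 0.039, where 48.5% of all genes were higher with a median of -0.0023. The authors' deposited table called 2 of the 34, Lpin1 and Lpl, against 0.794% of all genes. Lpin1 was lower with a log2 fold of -0.54 and an adjusted p of 0.00152 in the authors' deposited table. The limma difference was -0.36 (SE 0.051; adjusted p = 0.0597). With each library left out in turn it was between -0.39 and -0.33, and whether it passed changed with the library. Lpl, the lipoprotein lipase that frees fatty acids from circulating triglyceride, was lower with a log2 fold of -0.45 and an adjusted p of 0.0225 in the authors' deposited table. Lpl was at 15.58 and 15.73 in T2D dnMCUb, 15.87 and 15.78 in T2D empty vector, with control at 16.01 and 15.94, and no groups overlapped. The limma difference of T2D dnMCUb from control was -0.32 (SE 0.098; adjusted p = 0.299), and it passed without library 2 of T2D dnMCUb (-0.40, adjusted p = 0.0291, a setting in which 743 genes passed) and not without library 1 (-0.25, adjusted p = 0.299). For T2D dnMCUb over T2D empty vector, 15 of the 34 were higher and 19 lower, with a median of -0.019, where 49.5% of all genes were higher with a median of -0.00051, and limma and the authors' deposited table called 0 of the 34. The smallest limma p-values were those of Lpin1 (-0.14, SE 0.051; adjusted p = 0.869), Ldah, a droplet-associated hydrolase gene (0.083, SE 0.042; limma adjusted p = 0.877), and Angptl4, an inhibitor of lipoprotein lipase (0.30, SE 0.16; limma adjusted p = 0.879). Angptl4 was at 7.33 and 7.90 in T2D dnMCUb, 7.34 and 7.28 in T2D empty vector, with control at 7.32 and 7.13, so its high value was in library 2 alone. Without library 1 of T2D dnMCUb its difference from T2D empty vector was 0.59 and passed in limma (adjusted p = 0.0374), and without library 2 it was 0.015 (adjusted p = 0.953). With the 4 diabetic libraries together 22 of the 34 were higher than control and 12 lower, where 48.6% of all genes were higher. The smallest p-values were those of Lpin1 (-0.29, SE 0.044; limma adjusted p = 0.0898), Gpam (0.34, SE 0.075; limma adjusted p = 0.218) and Tmem159, which encodes a seipin partner in droplet formation (-0.19, SE 0.044; limma adjusted p = 0.228). With each library left out in turn these differences ran between -0.32 and -0.26 for Lpin1, 0.28 and 0.40 for Gpam, and -0.22 and -0.16 for Tmem159. Whether these 3 genes passed in limma changed with the library left out.

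**Figure D4:**
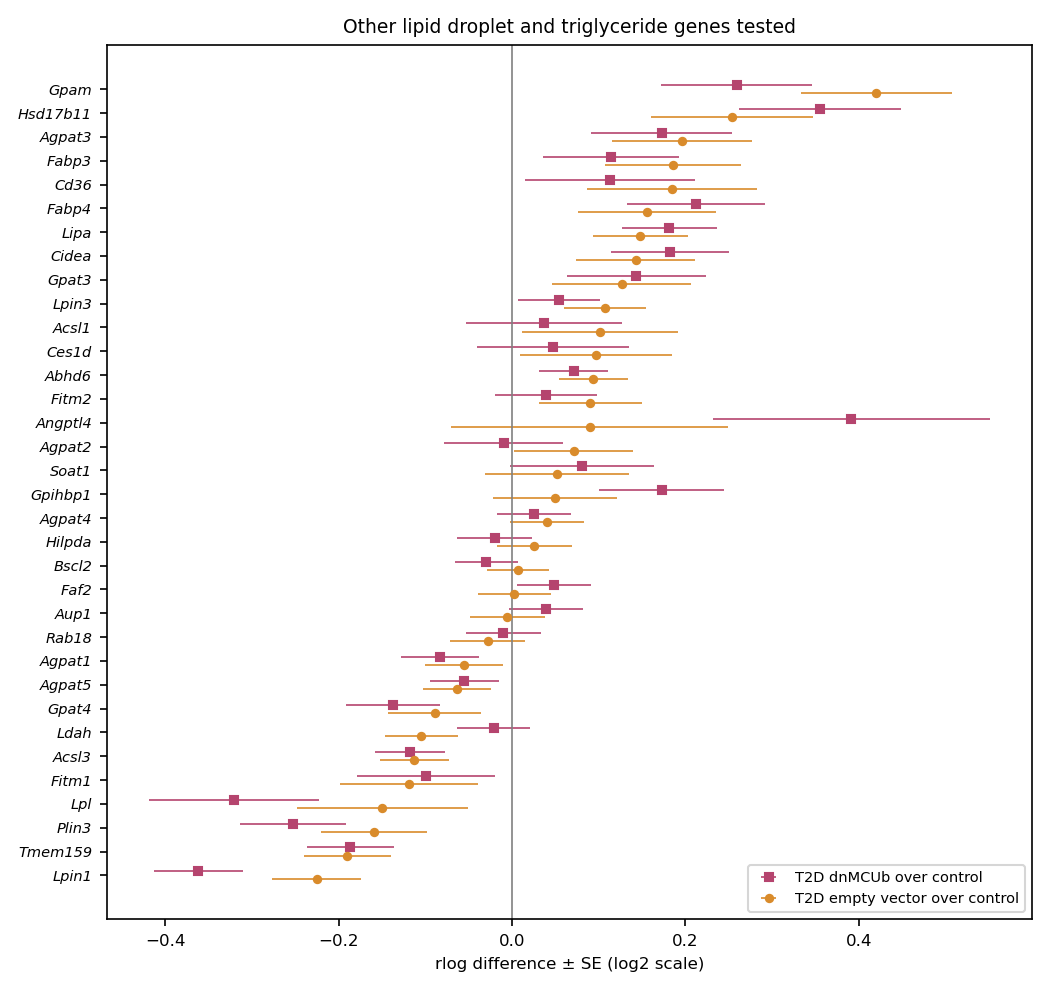
Rlog differences with standard errors for the 34 tested genes of the wider list, for T2D dnMCUb over control (squares) and T2D empty vector over control (circles), ordered by the second of these. Gpam is at the top (0.42 for T2D empty vector) and Lpin1 at the bottom (-0.23 for T2D empty vector, -0.36 for T2D dnMCUb); both comparisons share the control libraries.

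Over the 6 libraries Pnpla2 had the widest range of the 10 genes, 0.473, between library 2 of T2D dnMCUb and control library 2. The tested genes whose values, centred on each gene's mean, lay closest to those of Pnpla2 over the 6 libraries were Corin (root mean square difference 0.0394), Ech1 (0.0422) and Acaa2 (0.0481), where Pnpla2 itself lay 0.154 from its mean. Those closest to Plin5 were Acadl (0.0105), Foxo4 (0.0203) and Saraf (0.0217), where Plin5 lay 0.0886 from its mean. Acadl, an acyl-CoA dehydrogenase of fatty acid oxidation, was at 13.72 and 13.98 in T2D dnMCUb, 13.88 and 13.85 in T2D empty vector, with control at 13.75 and 13.70. Like Plin5, it was lowest or near lowest in library 1 of T2D dnMCUb and in control, and highest in library 2 of T2D dnMCUb. These likenesses are descriptions over 6 libraries that share their processing.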

How the data were processed

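Mouse heart RNA was sequenced from stranded libraries depleted of ribosomal RNA, per the labels' protocols. Tools named in the submitters' processing notes are bcl2fastq (2.20.0.422), STAR (2.5.2a) and DESeq2, and the builds are GRCm38, mm10 and hg38, with no roles. How reads were counted, and with which strand setting, is not given in the sources used here. The table deposited by the authors holds rlog values on the log2 scale for 6 libraries, and the authors' log2 fold changes, p-values and adjusted p-values for 3 comparisons. Depth is unknown. Of its 54352 rows, 22778 had a single value in all libraries.

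Differences in rlog were tested with limma 3.58.1 (R 4.3.3) over 13094 varying genes whose mean rlog reached 5. One model with a term per group held all 6 libraries and used a mean-variance trend (3 residual and 4.6 prior degrees of freedom). The Benjamini-Hochberg threshold was 0.05 over all genes tested, and errors are limma's standard errors. The procedure was tested on simulated data. With 2 libraries a group, exact permutation p-values cannot pass 0.05 (smallest 0.333) and were left out. Coordinates are those of the deposited table and were the same in GENCODE M21 for the transcript that it names for each gene. The RefSeq starts used for the promoter windows can differ from them.

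The 10 genes and all lists were chosen with earlier results of these data known. Other named genes are those of the wider list past the threshold in limma or the authors' table, or else the 3 with the smallest limma p in a comparison, and the 3 genes closest to Plin5 and to the most variable of the 10. Plin3 of the wider list is named as well, because it is a perilipin gene. A planned search of the proteins for a lipase motif was not run. Alternatives were fits of only the groups compared, each library left out, a replicate block, other filters on low values, no trend and centring on library medians.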

Additional observations from a re-analysis of the deposited data

How the results depend on the processing

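Of the 10 genes 0 passed in each comparison with all 6 libraries in limma, and the same held for 4 other settings (no filter on low values, a filter at a mean rlog of 7, no mean-variance trend, libraries centred on their medians). With only the groups compared, 1 of the 10, G0s2, passed between T2D empty vector and control, and 30 genes in all. That setting has no separate form for all T2D against control. Leaving out 1 library of the group not compared nearly repeats it, because the lone library left adds no spread. Leaving out each library in turn gave 0 to 1 of the 10 and 0 to 30 genes for T2D empty vector over control, 0 of the 10 and 0 to 14 genes for T2D dnMCUb over T2D empty vector, 0 to 1 of the 10 and 0 to 743 genes for T2D dnMCUb over control, and 0 to 1 of the 10 and 0 to 314 genes for all T2D over control. The 9 genes called for T2D dnMCUb over control became 0 with only those groups, with no filter, with no trend, after centring and with the replicate block, and 29 with the stricter filter; the cause was not tested.

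Libraries with the same number did not deviate together (correlations of -0.0876, -0.0133 and -0.511), so the numbers were not taken as pairs. With replicate number as a block 0 genes passed in each comparison, members included. A crossed pairing of T2D dnMCUb and T2D empty vector, added after seeing the data, gave 11 genes and 0 of the 10.

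For T2D dnMCUb over T2D empty vector the authors' log2 folds were 0.00046 for Plin5 and 0.027 for Pnpla2. The limma differences had the other sign, at -0.0078 and -0.0030. Among the limma settings signs turned only when a library was left out. Over T2D empty vector, T2D dnMCUb ranged -0.14 to 0.080 for Plin2, -0.13 to 0.073 for Plin4, -0.13 to 0.11 for Plin5, -0.21 to 0.20 for Pnpla2, -0.042 to 0.090 for Lipe, -0.0086 to 0.060 for Mgll, -0.049 to 0.011 for Abhd5 and -0.18 to 0.067 for Dgat2. Over control it ranged -0.0076 to 0.23 for Plin5, -0.050 to 0.36 for Pnpla2, -0.085 to 0.016 for G0s2 and -0.18 to 0.066 for Dgat2. Dgat2 ranged -0.049 to 0.048 for T2D empty vector over control and -0.090 to 0.033 for all T2D over control. G0s2 kept its sign for T2D empty vector over control (-0.37 to -0.27), and Lipe for both diabetic groups over control. Rlog values hold no depth, so the counting error behind each value is unknown.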
